A study of Mus musculus with 8 samples.

Results

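Iron handling transcripts were followed in the gastrocnemius muscle of aged control and muscle NOX4-deficient mice. The 10 genes were chosen by name for their roles in the uptake, storage, export and sensing of iron, when the difference in *Tfrc* between the genotypes was already known from an earlier look at these data. Of the 10 genes, 9 had a row among the 32390 rows of the count table, and all 9 had enough reads to be fitted among 12725 rows. *Trf*, which encodes the plasma iron carrier transferrin, was not analysed here. Because *Tfrc* guided the choice, the differences between genotypes in these genes are described only. Which of them passed the thresholds for calling genes is given, but nothing is read from it.

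Control mice were *Nox4* fl/fl and NOX4-deficient mice were MckCre:*Nox4* fl/fl, so that both genotypes carried the floxed *Nox4* alleles and differed by Cre. Cre is driven by the *Mck* promoter, which is active in striated muscle (heart included, though weaker there), so that vessels, immune cells and fibroblasts of the muscle are not targeted. All 8 mice were males on a C57BL/6 background, fed a chow diet and aged 21 months by the labels, with 4 mice per genotype and all samples in batch 1. Poly(A) RNA of the whole muscle was sequenced without strand information, and the libraries held from 16350548 to 19804661 reads counted on genes. Values are CPM (counts scaled to library size), corrected by edgeR's TMM method. Replicate numbers name the mice. In bulk muscle, fewer cells of a type and less RNA per cell cannot be told apart.

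*Nox4* itself had 5.09, 2.47, 1.87 and 3.64 CPM in control replicates 1 to 4 and 1.74, 2.17, 2.21 and 2.17 CPM in NOX4-deficient replicates 1 to 4. The genotypes overlapped, and the log2 fold change (NOX4-deficient over control) was -0.65 with a standard error (SE) of 0.29 and an adjusted p of 0.207 by edgeR's quasi-likelihood test. The counts cover the whole gene and all cells of the muscle, so they check the deletion only in part. The 7 muscle fiber markers summed to between 122302 and 156923 CPM in the 8 mice. Over all rows the median log2 fold change was 0.01.

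Iron reaches muscle bound to transferrin, which is taken into the cell by the transferrin receptor, encoded by *Tfrc*. In the endosome, ferric iron is reduced by STEAP3 and carried to the cytosol by DMT1, the product of *Slc11a2*. Iron that is not used for heme or iron-sulfur clusters is stored in ferritin, a shell of heavy (*Fth1*) and light (*Ftl1*) chains, or leaves the cell through ferroportin (*Slc40a1*). Heme oxygenase 1 (*Hmox1*) releases iron from heme. IRP1 (*Aco1*) and IRP2 (*Ireb2*), the iron-regulatory proteins, bind RNA hairpins called iron-responsive elements (IREs) when cellular iron is low. Bound in a 3' UTR, as in *Tfrc*, they protect the mRNA from decay. Bound in a 5' UTR, as in the ferritins and ferroportin, they block translation, which a count of mRNA does not measure.

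The hairpins that set these genes apart could be read from their mRNAs. GENCODE M21 transcripts (mouse build GRCm38) were searched for a C, an upper stem of 5 paired bases, a 6-base loop of CAGTG and then A, C or T, and at least 4 of 6 pairs in the lower stem. The weaker pair of G with U, written as T here, was counted as a pair in both stems. The 3' UTR of *Tfrc* held 4 matches, and the 5' UTRs of *Fth1*, *Ftl1* and *Slc40a1* held 1 each. They are shown because they are the sites through which these mRNAs are known to respond to iron, with the loop in capitals and the sequence 5′ to 3′ on the strand of the gene.
Tfrc 3' UTR, chr16:32631219-32631247, plus strand: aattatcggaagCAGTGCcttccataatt
Tfrc 3' UTR, chr16:32631598-32631626, plus strand: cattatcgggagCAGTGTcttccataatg
Tfrc 3' UTR, chr16:32631663-32631691, plus strand: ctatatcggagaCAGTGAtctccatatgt
Tfrc 3' UTR, chr16:32631710-32631738, plus strand: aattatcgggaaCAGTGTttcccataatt
Fth1 5' UTR, chr19:9982732-9982760, plus strand: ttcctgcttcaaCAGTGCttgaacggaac
Ftl1 5' UTR, chr7:45459779-45459807, minus strand: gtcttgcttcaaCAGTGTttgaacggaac
Slc40a1 5' UTR, chr1:45925465-45925493, minus strand: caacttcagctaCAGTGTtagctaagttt

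The hairpins of the ferritin chains were alike, with 26 of 29 bases identical between *Fth1* and *Ftl1*. The lower stem had 5 or 6 of 6 pairs in the hairpins of *Tfrc*, 5 in *Ftl1* and *Slc40a1* and 4 in *Fth1*. Among 21877 protein-coding genes, 6 (0.0274%) had a match in a 5' UTR and 11 (0.0503%) in a 3' UTR, so that the pattern was rare. No match was found in the mRNAs of *Slc11a2*, *Hmox1*, *Steap3*, *Aco1* or *Ireb2*, which says only that this pattern was not in these transcripts.

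*Tfrc* was higher in every NOX4-deficient mouse than in any control mouse. It had 26.2, 41.2, 34.4 and 29.9 CPM in control replicates 1 to 4 and 95.8, 117, 113 and 88.0 CPM in NOX4-deficient replicates 1 to 4. The lowest NOX4-deficient level was above the highest control level, and replicate 2 had the most *Tfrc* in each genotype. Control muscle averaged 32.9 ± 6.46 CPM and NOX4-deficient muscle 103 ± 13.8 CPM (SD, 4 mice each), a ratio of 3.14 and a log2 fold change of 1.65 (SE 0.15). Leaving out any 1 mouse kept this value between 1.56 and 1.78.

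The steps that follow the receptor in the endosome differed from each other. *Steap3*, the ferrireductase, had 17.6, 22.0, 15.9 and 10.5 CPM in control mice and 28.2, 25.0, 26.3 and 24.2 CPM in NOX4-deficient replicates 1 to 4. Its groups did not overlap, and its log2 fold change was 0.65 (SE 0.18), which fell to 0.48 without control replicate 4, the lowest mouse. *Slc11a2*, the transporter that moves iron out of the endosome, had 21.9, 33.5, 34.2 and 38.8 CPM in control mice and 23.3, 28.6, 29.4 and 25.6 CPM in NOX4-deficient muscle. All NOX4-deficient values of *Slc11a2* lay inside the control range, with a log2 fold change of -0.27 (SE 0.16). *Slc11a2* is transcribed with and without an IRE in its last exon, and counts per gene do not separate these forms. Its exons also share 402 bases with the predicted gene Gm5475, whose reads cannot be told apart.

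**Figure D1:**
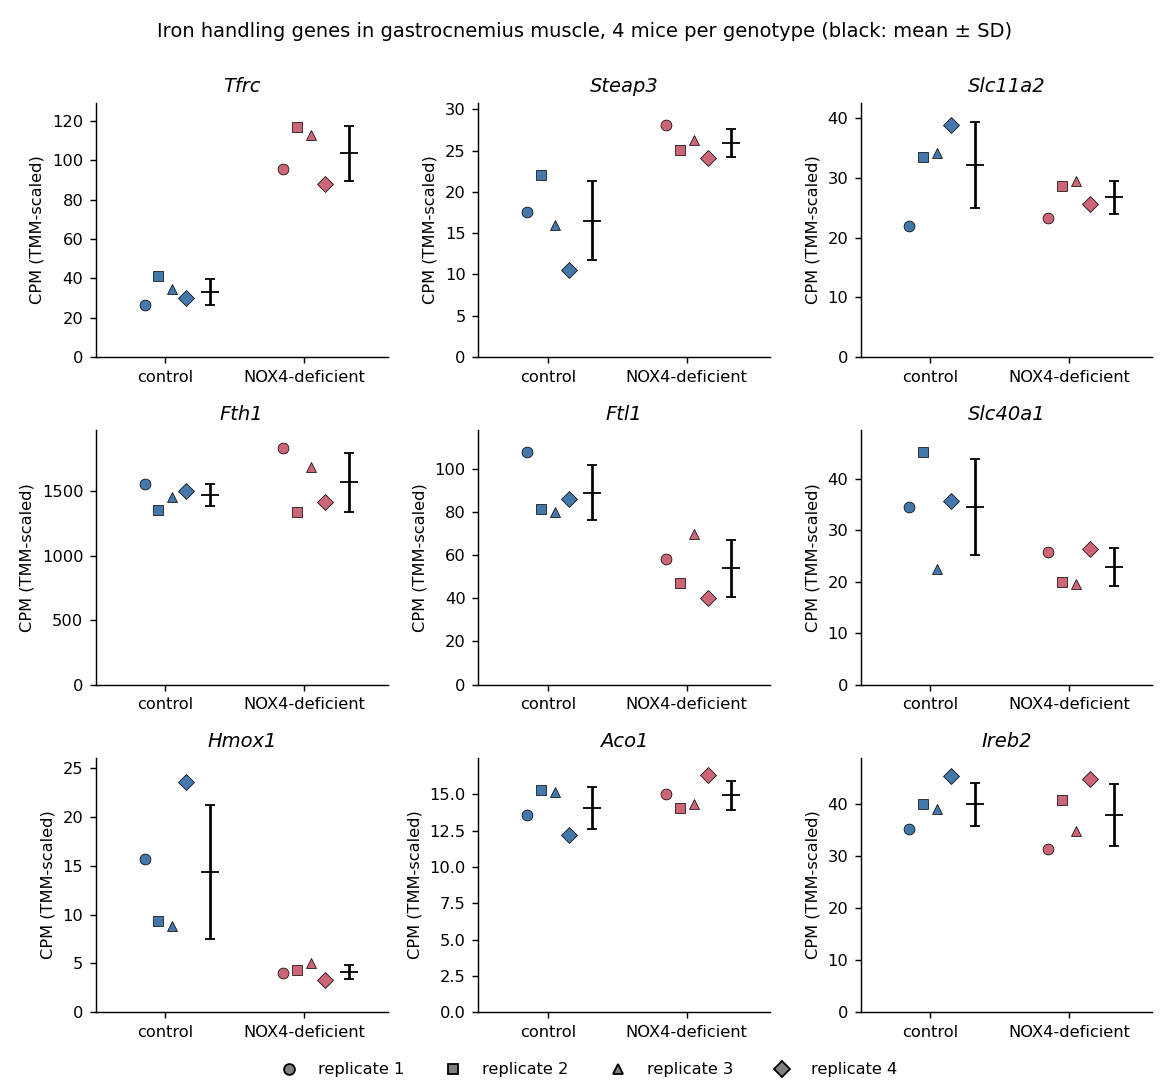
CPM of 9 iron handling genes (vertical axes, from 0, one scale per gene) in 4 control (blue) and 4 NOX4-deficient (red) mice, 1 point per mouse, with the mean ± SD in black. *Tfrc*, *Steap3*, *Ftl1* and *Hmox1* have groups that do not overlap, while *Fth1*, *Aco1*, *Ireb2*, *Slc11a2* and *Slc40a1* overlap.

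The ferritin chains parted. *Fth1*, which encodes the chain that oxidizes iron, had 1559, 1356, 1457 and 1503 CPM in control mice and 1836, 1337, 1686 and 1415 CPM in NOX4-deficient replicates 1 to 4. The groups overlapped fully, since NOX4-deficient mice held both the highest and the lowest value, and the log2 fold change was 0.09 (SE 0.12). *Ftl1*, which encodes the chain that helps iron to form its mineral core, had 108, 81.4, 80.2 and 86.2 CPM in control mice and 58.2, 47.1, 69.9 and 40.1 CPM in NOX4-deficient replicates 1 to 4. Every NOX4-deficient mouse was below every control mouse, with means of 88.9 ± 12.8 and 53.8 ± 13.1 CPM (SD, 4 mice each) and a log2 fold change of -0.72 (SE 0.16). The exons of *Ftl1* share 464 bases with Gm10252 and Gm22133, and ferritin genes have processed copies elsewhere in the genome, so that some reads may have been counted on a copy or left out.

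The ratio of the chains showed this parting within each mouse. Divided by the length of the principal transcript, *Fth1* over *Ftl1* was 9.38, 10.8, 11.8 and 11.3 in control replicates 1 to 4 and 20.4, 18.4, 15.6 and 22.9 in NOX4-deficient replicates 1 to 4. The groups did not overlap, and the mean ratio was 10.8 ± 1.04 in control and 19.3 ± 3.07 in NOX4-deficient muscle (SD, n = 4 each). Among NOX4-deficient mice the ratio was lowest in replicate 3, which had the most *Ftl1*, and highest in replicate 4, which had the least.

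*Slc40a1*, which encodes ferroportin, the iron exporter, had 34.5, 45.3, 22.6 and 35.7 CPM in control mice and 25.8, 19.9, 19.6 and 26.4 CPM in NOX4-deficient replicates 1 to 4. The groups overlapped through control replicate 3, which lay inside the NOX4-deficient range, while the other control mice lay above it. Control muscle averaged 34.5 ± 9.32 CPM and NOX4-deficient muscle 22.9 ± 3.67 CPM (SD, 4 mice each), and the log2 fold change was -0.59 (SE 0.19). The ratio of importer to exporter was also taken in each mouse. *Tfrc* over *Slc40a1*, per length, was 0.523, 0.627, 1.05 and 0.578 in control and 2.56, 4.05, 3.97 and 2.30 in NOX4-deficient replicates 1 to 4, with means of 0.694 ± 0.240 and 3.22 ± 0.920 (SD, n = 4 each). Every NOX4-deficient ratio was more than the highest control ratio. The ratio carries the difference in *Tfrc* that guided the choice of genes, so nothing more is read from this separation.

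**Figure D2:**
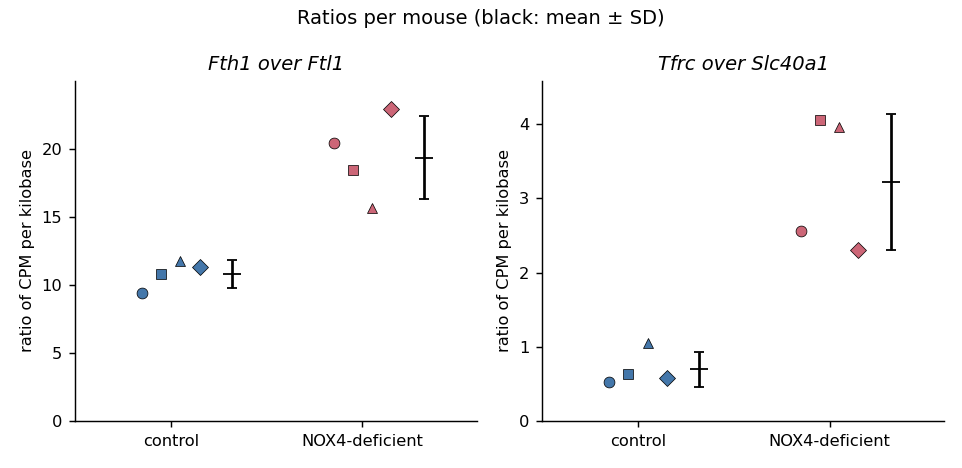
Ratio of CPM per kilobase of transcript (vertical axes, from 0) for *Fth1* over *Ftl1* and for *Tfrc* over *Slc40a1* in each mouse, with the mean ± SD in black. Marker shapes are replicates 1 (circle), 2 (square), 3 (triangle) and 4 (diamond). In both panels all 4 NOX4-deficient mice (red) are above all 4 control mice (blue). The *Tfrc* ratio carries the difference that guided the choice of genes.

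*Hmox1*, which frees iron from heme, was the gene with the largest decrease among the 9. It had 15.7, 9.37, 8.83 and 23.6 CPM in control mice and 3.97, 4.30, 5.05 and 3.28 CPM in NOX4-deficient replicates 1 to 4. The control mice varied widely, but all were above all NOX4-deficient mice. Control muscle averaged 14.4 ± 6.88 CPM and NOX4-deficient muscle 4.15 ± 0.732 CPM (SD, 4 mice each), 3.46-fold lower, and the log2 fold change was -1.79 (SE 0.30). Without control replicate 4, the highest mouse, the log2 fold change was -1.44.

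The iron-regulatory proteins themselves had similar mRNA levels in both genotypes. *Aco1*, which encodes IRP1, a protein that is an aconitase when it holds an iron-sulfur cluster, averaged 14.1 ± 1.45 CPM in control muscle and 14.9 ± 0.998 CPM in that of NOX4-deficient mice (SD, 4 mice each). Its 8 values lay between 12.2 and 16.3 CPM, with a log2 fold change of 0.09 (SE 0.12). *Ireb2*, which encodes IRP2, a protein whose amount is set by iron-dependent degradation, averaged 39.9 ± 4.19 CPM in control mice and 37.9 ± 6.02 CPM in NOX4-deficient mice (SD, 4 mice each). Its log2 fold change was -0.07 (SE 0.13) and turned to 0.02 without NOX4-deficient replicate 1. The RNA-binding activity of IRP1 and IRP2 is not measured by mRNA.

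Of the 9 genes, 2 passed the thresholds used for calling genes (edgeR adjusted p under 0.05 with a log2 fold change beyond 0.5 in size) as higher, *Tfrc* and *Steap3*, and 2 as lower, *Ftl1* and *Hmox1*. Over all rows tested, 2.68% were called higher and 3.48% lower. At the same thresholds DESeq2 and pydeseq2 each called 5 of the 9 genes, adding *Slc40a1* as lower. Of the 12725 rows tested, they called 997 and 993. In 4 of the 9 genes the groups did not overlap, against 16.2% of all rows tested. The genes were chosen with this comparison known, so nothing is read from these counts. The median log2 fold change was -0.07 over the 9 genes and 0.01 over all rows. By edgeR the 4 genes past the thresholds became 2, *Tfrc* and *Hmox1*, without control replicate 1 or NOX4-deficient replicate 2. With 1 mouse left out, *Tfrc* and *Hmox1* always passed, whereas *Steap3* passed only without control replicate 2.

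Per length, *Fth1* was the most abundant of the 9 mRNAs, with 983 ± 57.6 CPM per kilobase in control and 1050 ± 156 in NOX4-deficient muscle (SD, n = 4 each). *Ftl1* came next, with 91.8 ± 13.2 in control and 55.6 ± 13.5 in NOX4-deficient muscle, and did not overlap its neighbours in the order of levels. In control muscle *Tfrc* stood in place 7 of 9, with 6.73 ± 1.32 CPM per kilobase, within the range of *Ireb2* above it and clear of *Aco1* below it. *Slc11a2*, *Slc40a1*, *Hmox1* and *Ireb2*, in places 3 to 6, each overlapped the next. In NOX4-deficient muscle *Tfrc* stood in place 3, with 21.2 ± 2.83 CPM per kilobase, and overlapped neither *Ftl1* above nor *Slc11a2* below. *Hmox1* went from place 5, with 9.15 ± 4.38, to place 9, with 2.64 ± 0.466 CPM per kilobase, and there lay below *Aco1* without overlap.

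To see whether the rest of the pathway moved, 86 other iron genes were taken from 11 lists by role, and 74 of them could be tested. Of these, 3 were called lower and 0 higher by edgeR (4.05%), a smaller share than the 6.16% called among all rows tested. At an unadjusted edgeR p under 0.05, 11 were lower and 6 higher, and DESeq2 and pydeseq2 each called 4. As many genes had a positive as a negative log2 fold change (37 each), with a median of -0.01. The groups did not overlap in 13 of the 74 genes (17.6%), close to the 16.2% of all rows tested.

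All 3 called genes encode surface proteins of iron or heme uptake, among 7 tested genes of that list, of which 6 had a negative log2 fold change. *Slc39a14*, which encodes ZIP14, a carrier of iron that is not bound to transferrin, had 15.1, 15.9, 15.6 and 41.5 CPM in control mice and 7.94, 11.2, 7.62 and 9.91 CPM in NOX4-deficient replicates 1 to 4 (log2 fold change -1.26, SE 0.34, adjusted p = 0.0491). Control replicate 4 stood far above the other control mice, and without it the log2 fold change was -0.76. *Cd163*, the macrophage receptor for hemoglobin bound to haptoglobin, had 18.1, 13.1, 9.10 and 7.80 CPM in control mice and 3.19, 6.42, 6.25 and 3.69 CPM in NOX4-deficient replicates 1 to 4 (log2 fold change -1.29, SE 0.30, adjusted p = 0.0238).

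*Scara5*, a receptor that can take up ferritin, had 20.5, 19.8, 14.3 and 14.1 CPM in control mice and 9.32, 12.2, 10.8 and 6.57 CPM in NOX4-deficient replicates 1 to 4 (log2 fold change -0.82, SE 0.19, adjusted p = 0.0251). These uptake genes were lower in the genotype in which *Tfrc* was higher, and none of the 3 genes overlapped between genotypes. Within NOX4-deficient mice, *Cd163* and *Scara5* were highest in replicates 2 and 3, as *Tfrc* was. *Hfe*, a partner of the transferrin receptor in the same list, named after its values were seen, did not overlap either but lay on the other side, with means of 23.5 ± 3.38 CPM in control muscle and 31.6 ± 5.48 CPM in NOX4-deficient muscle (SD, 4 mice each; log2 fold change 0.43, adjusted p = 0.0958 by edgeR). Single libraries decided the calls, while the direction held. With 1 mouse left out, the log2 fold change stayed from -1.45 to -1.03 for *Cd163* and from -0.95 to -0.65 for *Scara5*. For *Slc39a14* it stayed from -1.41 to -0.76. None of the 3 was called without control replicate 2 or without NOX4-deficient replicate 1, and *Scara5* alone was called without NOX4-deficient replicate 4. *Slc48a1*, a heme transporter of the endosome, and *Lrp1*, a receptor for heme bound to hemopexin, had log2 fold changes of -0.03 (adjusted p = 0.910) and -0.28 (adjusted p = 0.333).

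**Figure D3:**
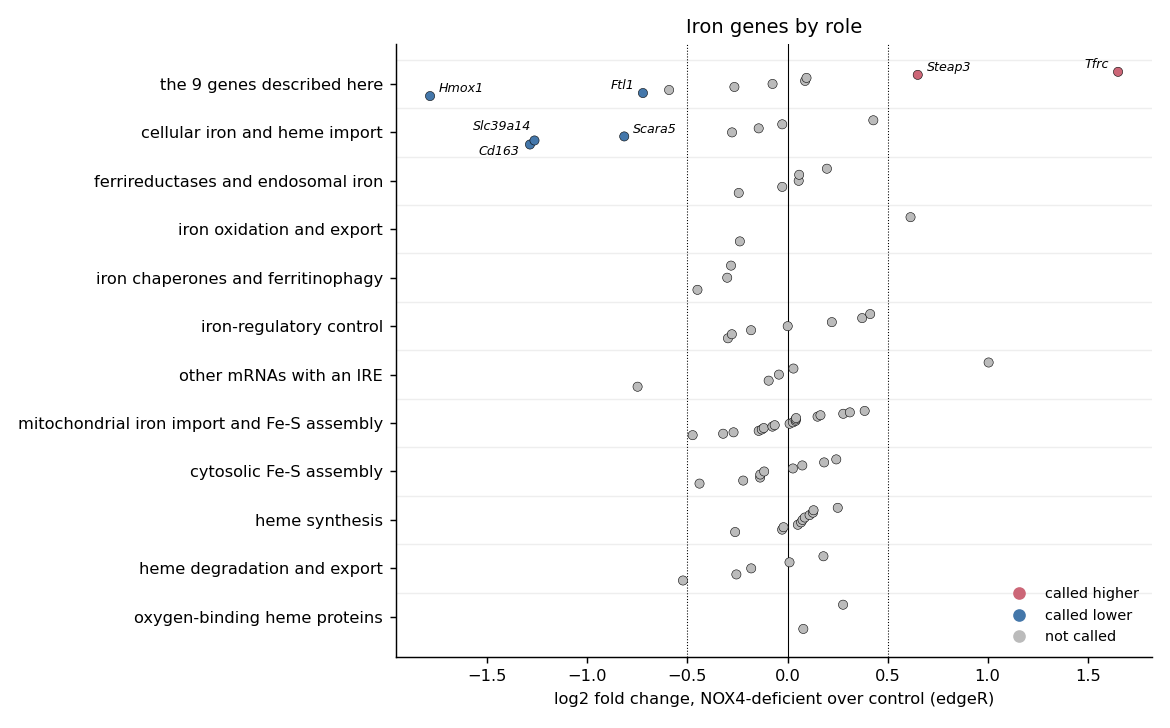
Log2 fold change (horizontal axis, NOX4-deficient over control, edgeR) of the 9 iron handling genes and of 74 other iron genes in 11 lists by role, 1 point per gene. Dotted lines mark the minimum of 0.5 in either direction, and red and blue points passed the thresholds; outside the top row the 3 blue points, *Slc39a14*, *Cd163* and *Scara5*, are all in the import list.

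The other genes of the endosome and of export did not pass the thresholds. Among ferrireductases and endosomal genes, 0 of 5 were called by edgeR, DESeq2 or pydeseq2 and 0 had an unadjusted p under 0.05. The most abundant were *Snx3*, which sorts the transferrin receptor back to the surface, with a log2 fold change of 0.06 (adjusted p = 0.791), and *Exoc6*, an exocyst subunit that serves the same cycle, with 0.20 (adjusted p = 0.286). The ferroxidases *Cp* and *Heph*, which help ferroportin to export iron, had log2 fold changes of -0.24 (adjusted p = 0.505) and 0.61 (adjusted p = 0.362), with *Heph* at most at 1.52 CPM.

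*Pcbp1* and *Pcbp2* encode poly(rC)-binding proteins, which hand iron to ferritin and to enzymes. *Pcbp1* had 161, 140, 160 and 164 CPM in control mice and 113, 106, 128 and 111 CPM in NOX4-deficient replicates 1 to 4, without overlap. Its log2 fold change was -0.45 (SE 0.10, adjusted p = 0.0178), under the minimum fold. *Pcbp2* did not overlap either, with means of 137 ± 6.44 and 113 ± 4.46 CPM (SD, n = 4 each), a log2 fold change of -0.28 and an adjusted p of 0.0697 by edgeR. All 3 tested genes of this list had a negative log2 fold change, and 0 were called by edgeR, DESeq2 or pydeseq2, with 2 lower at an unadjusted p under 0.05. *Ftmt*, the mitochondrial ferritin, had 0 counts in all 8 mice.

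Genes that set the level of iron-regulatory proteins or of iron in the body gave values on both sides of 0. *Fbxl5*, the iron sensor of the ligase that degrades IRP2, had means of 55.8 ± 3.48 and 55.8 ± 3.65 CPM (SD, n = 4 each) and a log2 fold change of 0.00. *Hjv*, the co-receptor of bone morphogenetic proteins that is abundant in muscle, had 671, 671, 726 and 597 CPM in control mice and 947, 815, 944 and 842 CPM in NOX4-deficient replicates 1 to 4. *Hjv* did not overlap between genotypes, and its log2 fold change of 0.41 (SE 0.10, adjusted p = 0.0319) was below the minimum fold. *Bmp6*, a ligand that informs the liver of iron stores, had -0.28 (adjusted p = 0.286), and *Rnf217*, a ligase that degrades ferroportin, 0.37 (adjusted p = 0.119).

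RNA-binding proteins that speed the decay of *Tfrc* mRNA belong to the same list. *Rc3h1* (Roquin-1) had a log2 fold change of -0.30 (adjusted p = 0.324), *Rc3h2* (Roquin-2) 0.22 (adjusted p = 0.138) and *Zc3h12a* (Regnase-1) -0.18 (adjusted p = 0.662). *Rc3h2* did not overlap between genotypes, from 55.9 to 58.5 CPM in control mice and from 64.6 to 69.4 CPM in NOX4-deficient muscle. Of the 7 tested genes of the list, 0 were called by edgeR, DESeq2 or pydeseq2, and 3 were higher and 0 lower at an unadjusted p under 0.05.

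Among 5 other mRNAs known to carry an IRE, 0 were called by edgeR, 1 was higher and 1 lower at an unadjusted p under 0.05, and DESeq2 and pydeseq2 each called 1. *Epas1*, which encodes the hypoxia-inducible factor HIF-2α, had a log2 fold change of -0.04 (adjusted p = 0.884). *Cdc42bpa*, a kinase of the cytoskeleton, had 0.03 (adjusted p = 0.946) with a range of signs over the alternatives. *Cdc14a*, a phosphatase, had 12.4, 27.3, 23.3 and 28.9 CPM in control mice and 10.7, 13.6, 15.5 and 15.0 CPM in NOX4-deficient replicates 1 to 4, with overlap through control replicate 1. Its log2 fold change was -0.75 (SE 0.23, adjusted p = 0.0676 by edgeR and 0.0189 by DESeq2), close to the value of *Ftl1*. *Alas2*, the erythroid first enzyme of heme synthesis, had a log2 fold change of 1.00 (SE 0.36, adjusted p = 0.111 by edgeR).

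Iron use in mitochondria and in heme synthesis was described by larger lists. Among 18 tested genes of mitochondrial iron import and iron-sulfur cluster assembly, 10 had a positive and 8 a negative log2 fold change. EdgeR, DESeq2 and pydeseq2 called 0 of these 18 genes, with 1 higher and 3 lower at an unadjusted p under 0.05. *Hspa9*, the chaperone that releases new clusters, had means of 536 ± 25.2 and 445 ± 26.1 CPM without overlap (SD, n = 4 each), a log2 fold change of -0.27 and an adjusted p of 0.103 by edgeR. *Slc25a37*, the iron importer of the inner mitochondrial membrane, named after its values were seen, lay on the other side without overlap, from 19.6 to 23.2 CPM in control mice and from 24.6 to 30.3 CPM in NOX4-deficient mice (log2 fold change 0.39, SE 0.11, adjusted p = 0.0527 by edgeR). *Isca1*, a carrier of clusters, had 0.16 (adjusted p = 0.420). In cytosolic assembly, 0 of 9 genes were called by the 3 tools, with 1 lower at an unadjusted p under 0.05. Its most abundant genes, *Ciao1* and *Ciao2a*, had log2 fold changes of -0.22 (adjusted p = 0.240) and 0.24 (adjusted p = 0.287).

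In heme synthesis, 0 of 11 genes were called by the 3 tools, with 1 lower at an unadjusted p under 0.05. *Alas1*, the first enzyme outside erythroid cells, had a log2 fold change of 0.05 (adjusted p = 0.819), and *Fech*, which inserts iron into heme, -0.03 (adjusted p = 0.924). In heme degradation and export, 0 of 5 genes were called by the 3 tools or had an unadjusted p under 0.05. *Hmox2*, the constitutive heme oxygenase, had 0.18 (adjusted p = 0.377), in contrast to the value of *Hmox1*, though the difference between them was not tested. *Mb*, which encodes myoglobin, the main heme protein of muscle, ranged from 742 to 1818 CPM in NOX4-deficient and from 816 to 1531 CPM in control muscle, with a log2 fold change of 0.08 (SE 0.31). *Cygb*, which encodes cytoglobin, had 0.28 (adjusted p = 0.450), and 0 of these 2 genes were called by the 3 tools or had an unadjusted p under 0.05.

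Hemoglobin transcripts, like *Tfrc*, were higher in NOX4-deficient muscle. *Hba-a1*, a hemoglobin alpha chain, had 15.8, 13.4, 13.5 and 13.9 CPM in control mice and 48.1, 24.8, 40.1 and 20.8 CPM in NOX4-deficient replicates 1 to 4 (log2 fold change 1.24, SE 0.23, adjusted p = 0.00978 by edgeR). *Hbb-bs*, a beta chain, had 35.2, 37.6, 36.0 and 32.8 CPM in control mice and 106, 53.2, 74.6 and 49.7 CPM in NOX4-deficient replicates 1 to 4 (log2 fold change 1.00, SE 0.21, adjusted p = 0.0153). Both were higher in every NOX4-deficient mouse. The 5 erythroid markers with a row summed to between 47.6 and 52.7 CPM in control mice and between 72.4 and 159 CPM in NOX4-deficient muscle.

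*Tfrc* is abundant in erythroid precursors, and the order of the NOX4-deficient mice is given here as a description. Replicate 1 had the most hemoglobin RNA and the third level of *Tfrc*. Replicate 2 had the most *Tfrc* and about as little *Hbb-bs* as replicate 4. Replicate 3 came next after the highest mouse for *Tfrc*, *Hba-a1* and *Hbb-bs*, and replicate 4 was lowest for each. *Slc4a1*, a membrane protein of red blood cells and their precursors, was near 0, with at most 3 counts in any mouse. *Alas2*, also an erythroid marker, had from 0.936 to 2.14 CPM in control mice and from 1.82 to 4.57 CPM in NOX4-deficient muscle. The part of blood in the *Tfrc* value was not tested.

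Macrophages recycle iron and express *Hmox1*, *Slc40a1* and *Cd163*. The 8 macrophage markers summed to 102, 60.0, 48.3 and 40.1 CPM in control mice and to 46.7, 38.0, 51.3 and 21.3 CPM in NOX4-deficient replicates 1 to 4. The sums overlapped. All 8 markers had a negative log2 fold change, from -1.29 (*Cd163*) to -0.22 (*Mrc1*), 1 of them was called lower (*Cd163*), and none of the 8 was at 0 in all mice. *Hmox1* was highest in control replicate 4, the control mouse with the smallest macrophage sum. Control replicate 1, with the largest sum, had the most *Ftl1* of the control mice. Among NOX4-deficient mice, *Hmox1*, *Ftl1* and the macrophage sum were all highest in replicate 3 and lowest in replicate 4. *Slc40a1* went the other way there and was highest in replicate 4. The part of macrophages in the values of *Hmox1*, *Slc40a1* and *Ftl1* was not tested.

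**Figure D4:**
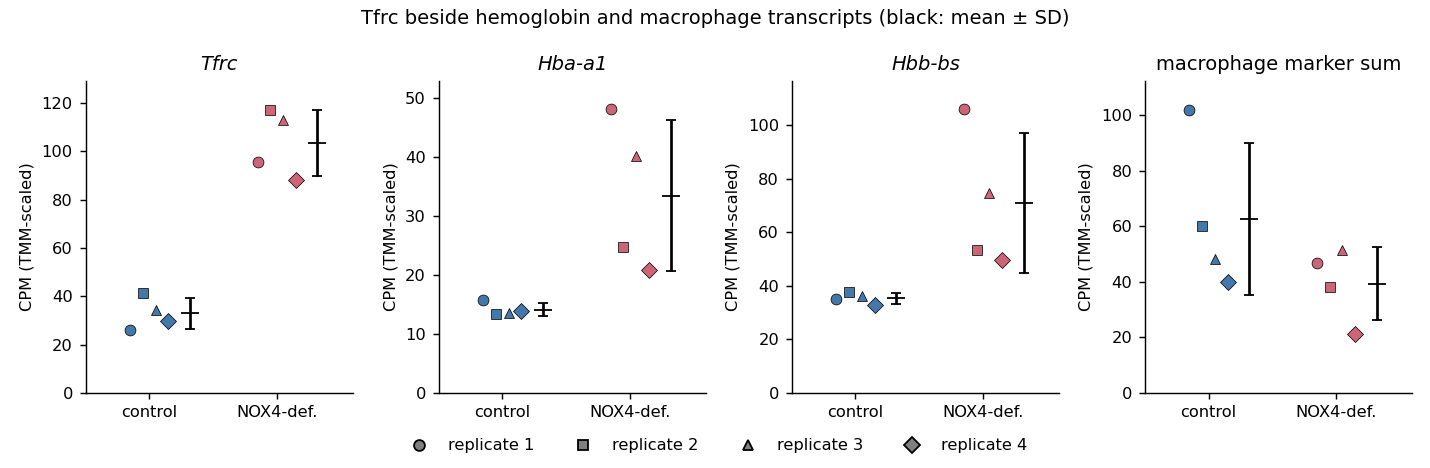
CPM (vertical axes, from 0) of *Tfrc*, of the hemoglobin chains *Hba-a1* and *Hbb-bs*, and of the sum of 8 macrophage markers in each mouse, with the mean ± SD in black. *Tfrc*, *Hba-a1* and *Hbb-bs* are higher in all 4 NOX4-deficient mice (red) than in all 4 control mice (blue). Among NOX4-deficient mice, replicate 4 is lowest for each of these genes. The highest is replicate 2 for *Tfrc* and replicate 1 for the hemoglobin chains. The macrophage sums overlap.

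Markers of other cells overlapped between genotypes. Endothelial markers summed to between 188 and 235 CPM in control mice and between 204 and 220 CPM in NOX4-deficient muscle, and fibroblast markers to between 359 and 639 and between 355 and 603 CPM. Single fibroblast markers went both ways, with log2 fold changes from -0.32 (*Pdgfra*) to 0.76 (*Col1a2*). Slow-fiber markers summed to between 294 and 639 CPM in control mice and between 386 and 1155 CPM in NOX4-deficient muscle. All 7 slow-fiber markers had a positive log2 fold change, from 0.39 (*Myl2*) to 1.14 (*Myh7*), and 0 were called by edgeR. Adipocyte markers ranged from 14.6 to 80.8 and from 20.3 to 74.3 CPM, and satellite cell markers from 2.25 to 3.71 and from 2.89 to 4.20 CPM. Genes of cell division, in which *Tfrc* is raised in many tissues, summed to at most 1.50 CPM, and hepatocyte markers to at most 1.34 CPM.

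The genes whose levels followed *Tfrc* most closely from mouse to mouse, once the mean of each genotype was subtracted from log2 CPM, were *PcgF3* (Pearson r = 0.974), *Flvcr1* (0.921) and *Maf* (0.919), over 8 mice and among rows with a mean of at least 10 CPM. The points share their libraries and are a description. *Flvcr1* encodes a transporter first described as a heme exporter. It was not higher in NOX4-deficient muscle, with 10.5, 23.4, 22.5 and 12.9 CPM in control mice and 9.14, 13.5, 17.2 and 8.33 CPM in NOX4-deficient replicates 1 to 4 (log2 fold change -0.52, adjusted p = 0.333 by edgeR). *PcgF3* and *Maf* had log2 fold changes of -0.07 and 0.14. Among the other 8 iron handling genes the same measure ranged from -0.38 for *Fth1* to 0.59 for *Slc11a2*, with 0.41 for *Steap3*.

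RefSeq promoter windows of GRCm38.p6, from 250 bases before to 50 after a start, were available for 6 of the 10 genes (*Tfrc*, *Fth1*, *Ftl1*, *Aco1*, *Ireb2* and *Steap3*). The core of the antioxidant response element, TGACNNNGC on either strand, was found in none of these windows and in 12.4% of 32851 windows of the table. The core of the hypoxia response element, ACGTG on either strand, was found in windows of *Tfrc* alone among them, at a single site that lies at -2 from the start of a transcript and at -228 from that of another, and in 19.6% of all windows. Such matches are letters in a window and not measured binding.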

How the data were processed

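Gastrocnemius RNA of 8 male mice was measured by bulk RNA-seq, with 4 mice per genotype. Raw counts, with a column for each mouse and rows named by gene, of which 412 repeat a name, were deposited by the authors without normalization. Per the paper's methods they used the nf-core RNA-seq pipeline, and the submitters' processing notes name STAR and GRCm39. Counter settings are not given in the sources used here. All 8 columns matched a sample, with 0 unmatched. Where a name was repeated, the row with the largest total was used.

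Genotypes were compared with edgeR 4.0.16 and limma 3.58.1 under R 4.3.3 (TMM, filterByExpr, estimateDisp, robust glmQLFit, glmQLFTest, genotype as the only term). P-values were Benjamini-Hochberg adjusted over 12725 rows, and genes were called at an adjusted p under 0.05 with a log2 fold change beyond 0.5 in size. No pair of replicates agreed within sampling noise. P-values measure the spread between these mice. The fit was tested on simulated data.

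The members and lists were chosen with earlier results of these data known. Named genes are the 10 members, called genes of the other lists and the 2 most abundant of each, tested regulatory and IRE genes (some listed genes are not reported here), the 3 most like *Tfrc*, *Nox4*, and markers at 0. Alternatives were other size factors, filters, thresholds, a fit that was not robust, the replicate block, each library left out, DESeq2 1.42.0 and pydeseq2 0.5.4. Sequences and lengths are from GENCODE M21 (GRCm38), whose coordinates were not converted.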

Additional observations from a re-analysis of the deposited data

Results flagged for a closer look

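In each group of 4 mice, the gap of the highest or lowest mouse to its nearest neighbour was divided by the range and compared with Dixon's critical ratio for 4 values. Of 110 groups, 7 were above it, where chance gives about 1 in 20 (5.5 groups), and none was a group of the 10 members. *Slc39a14* in control muscle had a ratio of 0.970, with replicate 4 at 41.5 CPM and the other mice from 15.1 to 15.9 CPM. *Isca1* in control muscle had 0.982, with replicate 4 lowest at 202 CPM. *Fbxl5* in NOX4-deficient muscle had 0.937, with replicate 3 lowest at 50.3 CPM. *Hmox2* in NOX4-deficient muscle had 0.924, with replicate 1 highest at 35.7 CPM. *Nox4* in NOX4-deficient muscle had 0.918, with replicate 1 lowest at 1.74 CPM. The sum of muscle fiber markers had 0.842 in control muscle, with replicate 3 highest, and the sum of adipocyte markers 0.836, with replicate 1 highest at 80.8 CPM.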

How the results depend on the processing

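Over 18 settings the log2 fold change of *Tfrc* ranged from 1.56 to 1.78, of *Hmox1* from -1.95 to -1.44, of *Ftl1* from -0.86 to -0.59, of *Slc40a1* from -0.73 to -0.43 and of *Steap3* from 0.48 to 0.82. *Ireb2* alone among the 9 changed sign (-0.15 to 0.02). The other iron genes called numbered 3, all lower. With each library left out they numbered from 0 to 3, lower 0 to 3 and higher 0. Without a minimum fold they numbered 5, of which 1 was higher. At an adjusted p under 0.01 edgeR called 0, with 11 lower and 6 higher at an unadjusted p under 0.05. Over all rows, 252 genes were called at that threshold, 96 higher and 156 lower, and leaving out 1 library gave from 499 to 712 (204 to 317 higher, 295 to 425 lower), lowest without control replicate 4. The cause was not tested. With the replicate number as a block, 5 other iron genes were called, all 5 lower, adding *Cdc14a* and *Flvcr1*, and *Slc40a1* joined the 4 members past the thresholds. *Slc40a1* also joined them with DESeq2 and with pydeseq2, and it passed by edgeR without control replicate 3. Same-numbered mice deviated together with r of 0.223, 0.147, 0.041 and 0.0412, and control replicate 2 correlated best with NOX4-deficient replicate 4, so the numbers were not taken as pairs. Among members, 2 passed at an adjusted p under 0.01. With library sizes only, or with a fit that was not robust, 3 passed, and *Steap3* did not. *Slc39a14* was no longer called with DESeq2's size factors, library sizes only or no filter. Depth limits *Heph*, *Alas2* and the cell division genes, which lay at a few CPM or below.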

Other observations

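Among the 11 genes whose 3' UTR held a match to the IRE pattern, 8 could be tested. Of these, edgeR called *Tfrc*, whose difference was already known, and *Pdcd4* higher. Of 4 tested genes with a match in the 5' UTR, edgeR called 1 lower (*Ftl1*). Nothing is read from these counts. *Pdcd4*, which encodes a repressor of translation and was singled out after its values were seen, had 12.2, 10.1, 14.4 and 11.2 CPM in control and 22.5, 23.9, 22.3 and 21.5 CPM in NOX4-deficient replicates 1 to 4. The lowest NOX4-deficient mouse was above the highest control mouse, and the log2 fold change was 0.91 (SE 0.13, adjusted p = 0.00147 by edgeR). Its match lies at chr19:53929507-53929535 on the plus strand of GRCm38 and reads 5′ to 3′, with the loop in capitals, ttctttcaaggaCAGTGTtttttgtagta. Its lower stem had 4 of 6 pairs, the minimum of the search, whereas the hairpins of *Tfrc* had 5 or 6. Of the other 6 tested genes, *Fbxl14* did not overlap between genotypes (log2 fold change 0.37, adjusted p = 0.110) and *Trim23* had -0.22 (adjusted p = 0.236).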
